A study of Mus musculus with 4 samples.

Results

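The high-affinity IgE receptor is encoded by 3 genes, Fcer1a for the alpha chain, Ms4a2 for the beta chain and Fcer1g for the gamma chain. Its members here were the probe sets of the deposited table annotated with exactly 1 of these symbols, and 4 of the 10861 probe sets met this rule. Fcer1a was read by probe set 1421775_at, Ms4a2 by 1421475_at and 1443264_at, and Fcer1g by 1418340_at, so that 3 of the 6404 genes in the table were described. Expression was measured on Affymetrix mouse arrays in EML cells. These are mouse blood progenitors kept as a line, and they ordinarily need stem cell factor (SCF), which binds and activates the surface receptor KIT. The 4 groups were D816V cells with SCF, D816V cells without SCF, Del417-419insY cells with SCF and Del417-419insY cells without SCF, each with 1 array. D816V lies in the kinase domain of KIT, a tyrosine kinase, and Del417-419insY in its extracellular part. In both lines the mutant KIT had been brought in with a pLXSN retroviral vector, the cells selected with geneticin, grown until independent of added factor, and sorted for KIT. SCF was given at 250 ng/mL for 48 h, and for the cells without SCF the labels name no agent and no time. Each mutant was 1 transduced population.

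The receptor sits on mast cells and basophils, where it holds IgE at the surface and starts degranulation when antigen crosslinks it. The alpha chain binds the Fc part of IgE. The beta chain, a membrane protein of the MS4A family that crosses the membrane several times, amplifies the signal through its cytoplasmic tail, and the gamma chain, a disulfide-linked dimer, carries the activation motifs that recruit the kinase SYK. In rodents all 3 chains are needed to bring the receptor to the surface, whereas the gamma chain alone also serves other Fc receptors and several lectin receptors, in cells that have neither alpha nor beta chain. KIT signalling supports the growth and survival of mast cells, and activating KIT mutations occur in mastocytosis.

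The start regions of the 3 genes are shown because transcription factors of the GATA family are known to act at the alpha and beta chain promoters. Sequences are from RefSeq on build GRCm38.p6, 250 bases before to 50 bases after the start used in that table, and all 3 genes matched. For Fcer1a and Ms4a2 the RefSeq gene reaches further upstream than this start. Each window has 300 bases, reads 5′ to 3′ along its gene, and lies on the minus strand, at chr1:173227180-173227479 for Fcer1a, chr19:11623670-11623969 for Ms4a2 and chr1:171234300-171234599 for Fcer1g. Capitals mark GATA hexamers, which were searched as AGATAA or AGATAG and, with a different first base, as TGATAA or TGATAG on both strands.
Fcer1a: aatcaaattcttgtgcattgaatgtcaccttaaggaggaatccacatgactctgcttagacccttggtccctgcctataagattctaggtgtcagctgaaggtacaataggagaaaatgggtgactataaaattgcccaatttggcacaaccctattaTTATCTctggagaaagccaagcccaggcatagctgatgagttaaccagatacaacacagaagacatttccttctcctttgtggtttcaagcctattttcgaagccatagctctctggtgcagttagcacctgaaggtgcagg
Ms4a2: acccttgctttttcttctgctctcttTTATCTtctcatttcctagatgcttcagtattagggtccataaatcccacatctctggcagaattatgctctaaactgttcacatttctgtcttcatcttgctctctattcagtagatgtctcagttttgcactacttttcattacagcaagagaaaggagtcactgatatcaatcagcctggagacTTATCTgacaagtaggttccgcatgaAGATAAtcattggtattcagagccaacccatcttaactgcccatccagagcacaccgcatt
Fcer1g: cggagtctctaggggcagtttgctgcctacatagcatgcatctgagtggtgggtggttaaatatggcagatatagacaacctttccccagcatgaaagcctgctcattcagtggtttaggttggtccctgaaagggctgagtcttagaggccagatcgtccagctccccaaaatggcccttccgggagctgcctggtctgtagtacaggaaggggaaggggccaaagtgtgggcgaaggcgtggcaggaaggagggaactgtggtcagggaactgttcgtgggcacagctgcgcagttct
Fcer1a held 1 GATA hexamer, 92 to 87 bases before the start. Ms4a2 held 3, the nearest of them 11 to 6 bases and the next 37 to 32 bases before the start, and Fcer1g held none in this window. Such a hexamer occurred in 29.6% of the 32544 windows of this length in the table. The hexamer GAGGAA, a core of sites for the factor PU.1, was found in Fcer1a (1 match) and in 28.1% of all windows on either strand. The E-box CANNTG was found 3 times in Fcer1a, 2 times in Fcer1g and not in Ms4a2, and in 72.3% of all windows. No GATA hexamer overlapped a GAGGAA or CANNTG match. These matches describe the letters of the windows and were not set against the expression values by any test.

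The values were taken as log2, lay around 0 and were often negative, so they are relative to a level that was not stated and may differ between probe sets. They can be compared between arrays for 1 gene but not between genes. The array medians over all probe sets were -0.20 and -0.10 in D816V cells with and without SCF, and -0.05 and -0.02 in Del417-419insY cells with and without SCF. Kit was lower in D816V cells (log2 difference -1.42, shrinking to -0.81 over the alternatives), and whether its probe sets read the constructs was not stated. Of the 14 progenitor genes listed to check the line, 8 were measured, and on this relative scale their presence or absence cannot be read. In such bulk RNA, more cells that express a gene and more RNA of it per cell cannot be told apart.

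The alpha chain separated the lines by far the most of the 3 chains. Fcer1a had relative log2 values of 5.25 and 5.49 in D816V cells with and without SCF, against -0.95 and -0.43 in Del417-419insY cells with and without SCF. Both D816V arrays were high and both Del417-419insY arrays low, with a gap far wider than the difference between arrays of a line. The difference was 73.4-fold with SCF and 60.5-fold without SCF, and in each condition it ranked 6 of 6404 genes from the top. In the additive limma fit of line and SCF over all genes, the mean difference of Fcer1a was 6.06 (SE 0.13, 95% interval 5.73 to 6.39, adjusted p = 7.41e-05). This is 66.6-fold, and cyclic loess scaling of the arrays reduced it to 16.0-fold, past the threshold as well. The only residual of a gene in this fit is the gap between its SCF responses in D816V and Del417-419insY cells. The p-values therefore cover neither repeat arrays nor repeat populations.

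The gamma chain was modestly higher in D816V cells. Fcer1g had relative log2 values of 0.10 and 0.22 in D816V cells with and without SCF, against -0.34 and -0.50 in Del417-419insY cells with and without SCF. These values lay within a range that Fcer1a exceeded many times over. Fcer1g was 1.35-fold higher in D816V cells with SCF and 1.64-fold higher without SCF. The mean difference over both conditions was 0.58 (SE 0.13, 95% interval 0.24 to 0.91, limma adjusted p = 0.023), or 1.49-fold. It stayed past the threshold in all 9 alternatives run, between 0.58 and 0.73. It is nevertheless a common size in these data, since 3071 of 6404 genes had a difference at least as large in either direction with SCF, and 1168 had one without SCF.

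The beta chain differed between the lines without SCF and hardly with it. On its probe set 1421475_at, Ms4a2 had relative log2 values of -2.35 and -0.69 in D816V cells with and without SCF, against -2.52 and -1.98 in Del417-419insY cells with and without SCF. On 1443264_at the values were -2.39 and -0.71 in D816V cells and -2.39 and -1.73 in Del417-419insY cells, in the same order of conditions. On both probe sets the D816V array without SCF stood above the other arrays, and the array with SCF of each line was low. The SCF difference in D816V cells was -1.66 on 1421475_at and -1.68 on 1443264_at. As the mean of both, Ms4a2 was 1.06-fold higher in D816V cells with SCF and 2.22-fold higher without SCF. The mean difference over both conditions was 0.62 (SE 0.26, 95% interval -0.05 to 1.29, limma adjusted p = 0.11) and did not pass the threshold. It passed after 3 other scalings of the arrays, with adjusted p = 0.030 after quantile normalization, 0.0011 after cyclic loess and 0.015 after subtraction of array medians. After cyclic loess the difference with SCF was 0.97 and no longer near 0, so how far the lines were apart with SCF depended on the scaling.

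**Figure D1:**
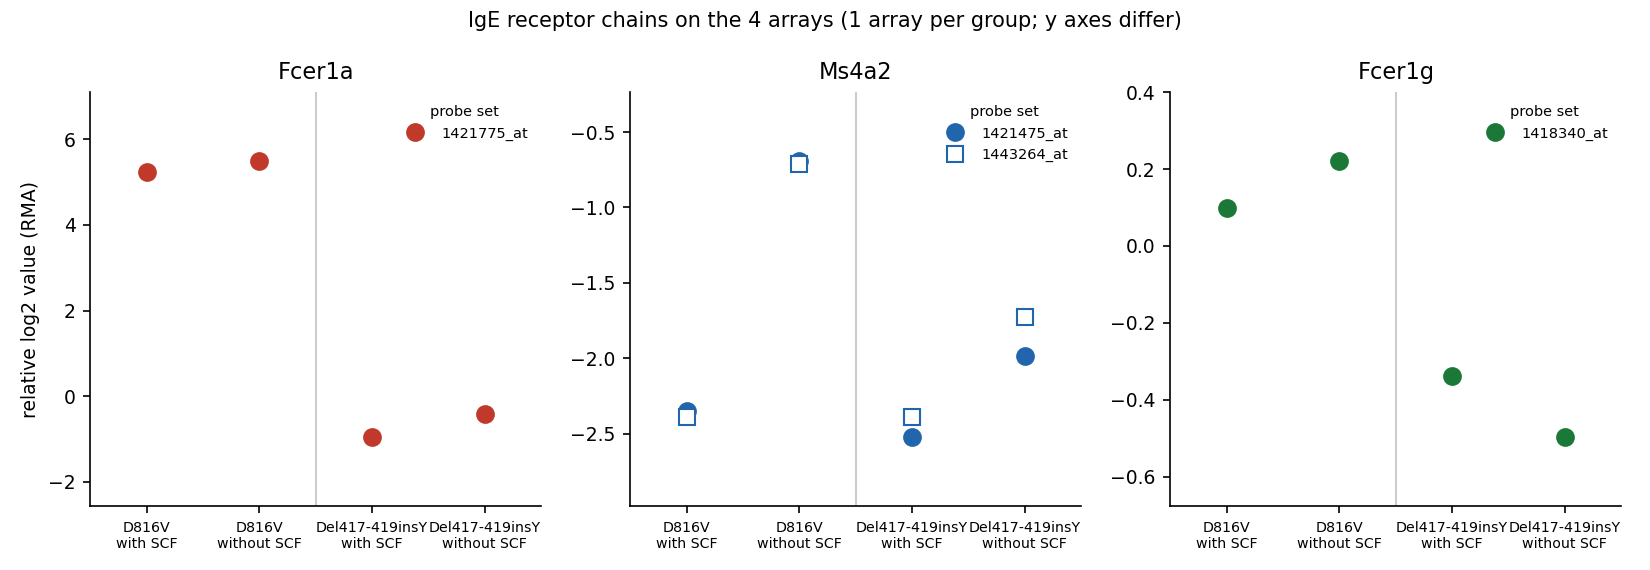
Relative log2 values of the 4 probe sets of the IgE receptor chains on the 4 arrays, 1 point per probe set and array, with a y axis of its own for each gene. Fcer1a is above 5 on both D816V arrays and below 0 on both others, whereas Ms4a2 is highest on the D816V array without SCF alone.

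Of the 3 chains, 2 were thus called higher in D816V cells and none lower, where the fit called 42.6% of all genes, 17.9% higher and 24.7% lower. The median difference over all genes was -0.10, and quantile normalization, cyclic loess and centring raised it by 0.11, 0.15 and 0.12. At 2-fold or more, 1 chain, Fcer1a, was higher in D816V cells with SCF, where 6.34% of all genes were higher and 7.42% lower. Without SCF 2 chains, Fcer1a and Ms4a2, were higher, where 6.29% of all genes were higher and 4.18% lower. No chain changed its direction between the lines under any of these scalings. The chains thus differed between the lines by unlike amounts, with 66.6-fold for the alpha chain beside 1.54-fold for the beta and 1.49-fold for the gamma chain. Whether 1 chain's difference exceeds another's was not tested.

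Of the 3 chains, the beta chain had the largest SCF difference in D816V cells. In D816V cells Ms4a2 was lower with SCF, with a log2 difference of -1.67, or 3.17-fold. It ranked 15 of 6404 genes from the lowest in that line, where 1.31% of genes were 2-fold or more lower and 0.328% 2-fold or more higher. In Del417-419insY cells its difference with SCF was -0.60, or 1.52-fold, in the same direction. It was close there to that of Fcer1a (-0.53), and the order of the 2 turned after quantile normalization, with -0.49 for Ms4a2 and -0.54 for Fcer1a. Both probe sets were lower with SCF in both lines, and the 4 scalings or probe set choices tried kept the differences between -1.68 and -1.31 in D816V cells and between -0.68 and -0.49 in Del417-419insY cells. The mean over both lines was -1.13 (SE 0.26, 95% interval -1.80 to -0.46, limma unadjusted p = 0.0072, adjusted p = 0.16). It did not pass the threshold, and in this fit 0.0% of all genes passed it for SCF, while 1186 of 6404 (18.5%) had an unadjusted p under 0.05. Ms4a2 passed after array medians were subtracted (adjusted p = 0.029) and when the probe set with the highest mean stood for the gene (adjusted p = 0.039). The SCF response of Ms4a2 in D816V cells minus that in Del417-419insY cells was -1.07, and 85 of 6404 genes had a difference at least as large in either direction. That difference is the only residual of the fit and could not be tested.

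Fcer1a and Fcer1g differed less than Ms4a2 with SCF in D816V cells. Fcer1a stood at a log2 difference of -0.25 in D816V cells and -0.53 in Del417-419insY cells, with a mean of -0.39 (SE 0.13, limma adjusted p = 0.22). It was thus lower with SCF in both lines without passing the threshold, and the difference was a small share of that between the lines. Fcer1g had -0.12 in D816V cells and 0.16 in Del417-419insY cells, with a mean of 0.02 (SE 0.13, 95% interval -0.31 to 0.35, limma adjusted p = 0.95). A change of 2-fold over both lines lies outside that interval, which covers neither repeat arrays nor repeat populations.

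**Figure D2:**
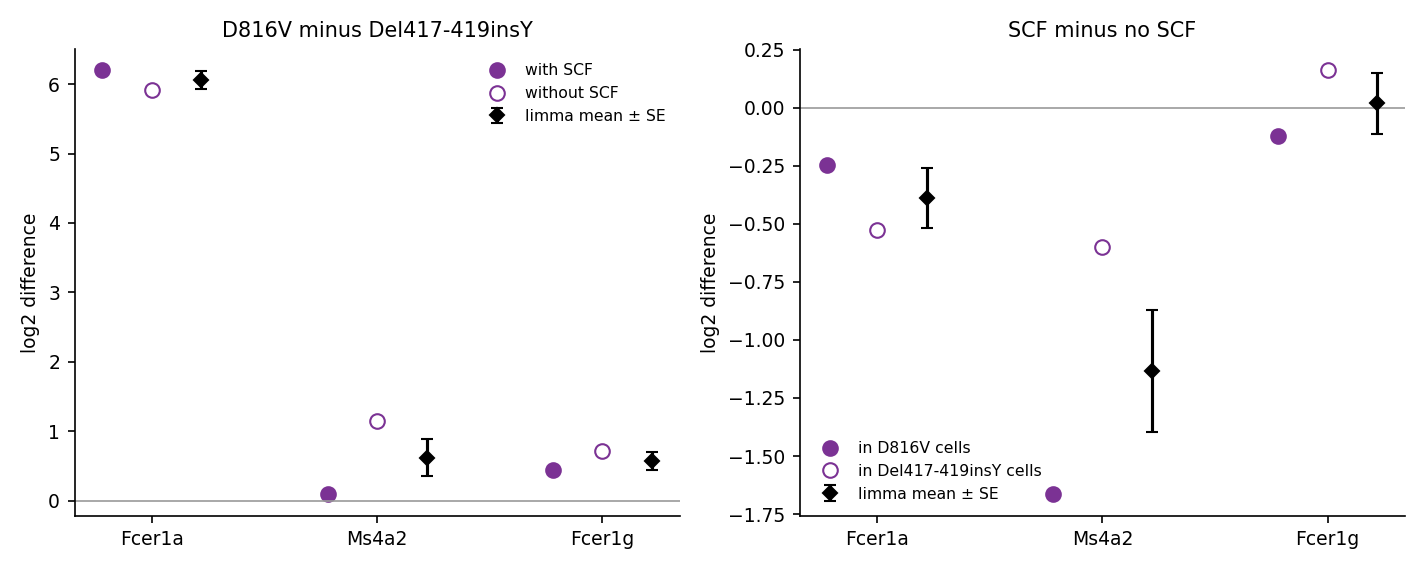
Log2 differences of the 3 chains between the lines (left, with SCF and without SCF) and between cells with and without SCF (right, in each line). Circles are differences of single arrays and diamonds the limma mean over both with its SE, and the y axes differ between panels. Fcer1a stands near 6 between the lines, and Ms4a2 at -1.67 with SCF in D816V cells.

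Other genes of mast cells were set beside the chains. Of 27 listed mast cell genes apart from the chains, 17 were measured, and 12 of them were higher and 2 lower in D816V cells by the limma fit, 3 not passing, where 17.9% of all genes were higher and 24.7% lower. Their median difference was 1.38, beside -0.10 over all genes. Summed over the 17 genes, relative log2 values were 1.19 and 13.3 in D816V cells with and without SCF, against -18.0 and -14.8 in Del417-419insY cells with and without SCF. The genes with the largest differences were Tph1 (5.37), the enzyme of serotonin synthesis outside the brain, Rab27b (4.16), a regulator of granule secretion, the chymase gene Cma1 (4.07) and Hpgds (2.19), which makes prostaglandin D. Fcer1a lay above all of these, and over the alternatives the difference of Tph1 went down to 3.38. The 2 lower genes were Kit (-1.42) and Cd9 (-1.20). The list shares genes with progenitors and basophils, among them Gata2, Kit and Mcpt8, and was chosen with earlier results of these data known.

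With SCF, 7 of the 17 mast cell genes were 2-fold or more lower in D816V cells, where 1.31% of all genes were, and 2 of 17 were in Del417-419insY cells, where 0.547% were. Of these, the protease genes Mcpt4 (-1.78 in D816V cells and -2.14 in Del417-419insY cells) and Tpsb2 (-1.33 and -1.95) were 2-fold or more lower in both lines, and by more in Del417-419insY cells. The other 5 were lower in D816V cells alone by that measure. Hpgds had -1.48 in D816V cells and -0.30 in Del417-419insY cells, and Hdc, which makes histamine, had -1.06 and -0.43. The protease genes had -1.19 and 0.76 for Cma1, -1.08 and 0.40 for Mcpt2, and -1.01 and -0.07 for Mcpt8, D816V cells first. In the other direction, 1 of the 17, Ctsg, was 2-fold or more higher with SCF in Del417-419insY cells (1.04), where 0.328% of all genes were. Ctsg had -0.21 in D816V cells, where 0 of 17 were 2-fold or more higher. Ms4a2, at -1.67 in D816V cells, lay between Mcpt4 and Hpgds, while Tph1, at 0.03 in that line, and Fcer1a were not 2-fold lower. None of the 17 passed the limma test for SCF, but 1 did after quantile normalization, 2 after cyclic loess, 3 after array medians were subtracted and 4 with the highest-mean probe set, all as lower. Of all 6404 genes, these settings called 2, 42, 256 and 256 for SCF, in that order.

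**Figure D3:**
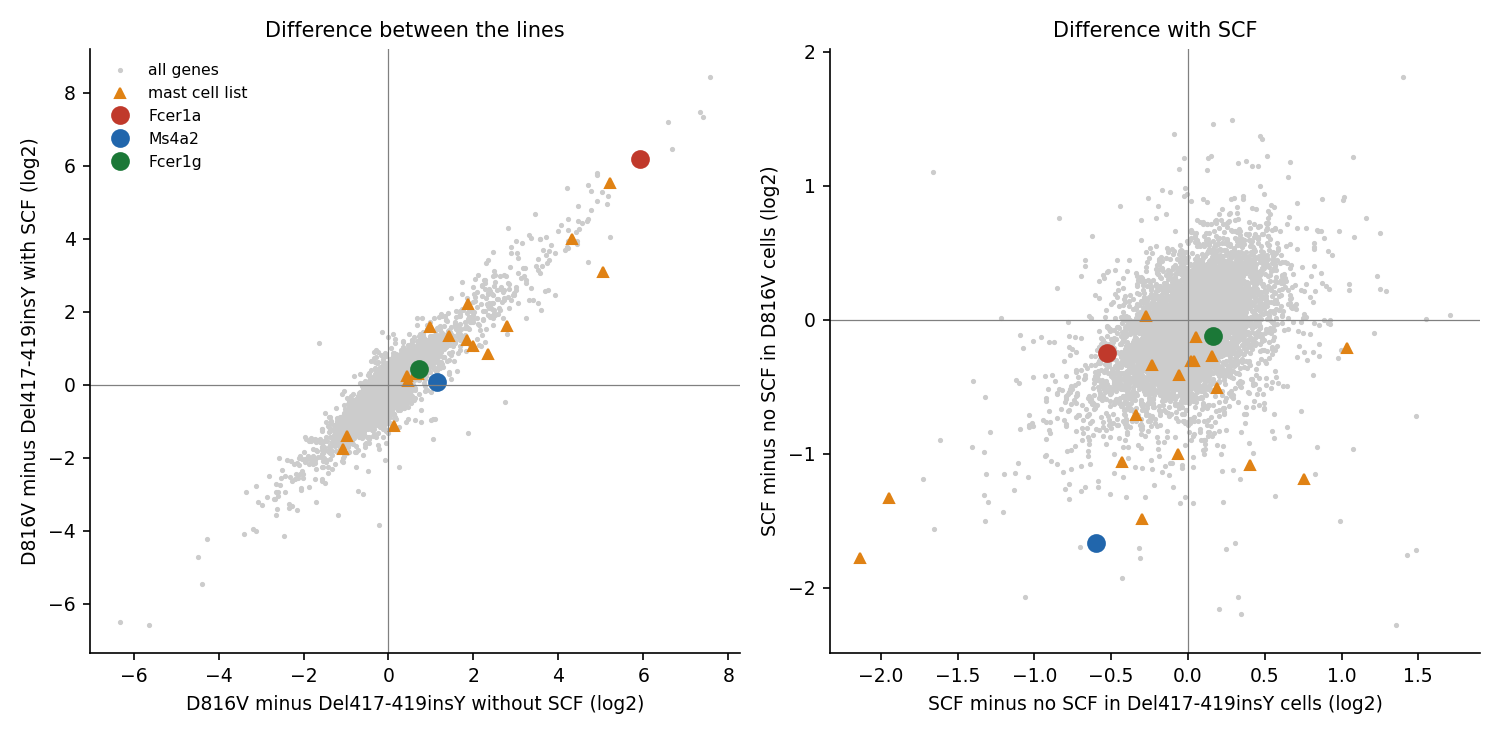
Each of 6404 genes (grey) by its log2 difference between the lines without SCF (x) and with SCF (y) on the left, and by its SCF difference in Del417-419insY cells (x) and D816V cells (y) on the right, with the chains and the 17 mast cell genes marked. Fcer1a lies near the upper end on the left, and Ms4a2 low on the right with several mast cell genes.

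Markers of other cells that could carry a chain moved as well. The counts below stand beside 17.9% higher and 24.7% lower over all genes. Of 16 basophil genes 9 were measured, with 6 higher and 1 lower in D816V cells and a median of 1.20. Their summed relative log2 values were 0.27 and 4.45 in D816V cells with and without SCF, and -4.56 and -5.79 in Del417-419insY cells with and without SCF. The highest were Cd69 (2.09), an early activation antigen, Csf2rb2 (1.59), a beta chain of the IL-3 receptor, the protease gene Mcpt8 (1.53) and Ifitm1 (1.28). The basophil genes Prss34 and Cd200r3 were not analysed here. Of 19 genes of monocytes, macrophages and dendritic cells, which can carry the gamma chain, 6 were measured. In the main fit 4 were higher (Ccr2, Ccr7, Cd74 and Itgax) and none lower. The lysozyme genes Lyz2 (-0.86) and Lyz1 (-0.59) did not pass, but each passed as lower in at least 1 alternative. Summed values of the 6 were -2.16 and 1.41 in D816V cells against -7.62 and -6.45 in Del417-419insY cells, with SCF first. Both measured eosinophil genes of 11 listed, Il5ra (-2.04), an IL-5 receptor chain, and the lectin gene Siglecf (-1.04), were lower in D816V cells, with sums of -4.89 and -4.56 against -1.55 and -1.75. The difference of Siglecf shrank to -0.38 over the alternatives and passed in each. The part of these markers in the values of the chains was not tested. On this scale no marker can be read as being at 0.

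Of 16 further receptors listed as pairing with the gamma chain, 4 were measured, and 3 were lower in D816V cells and none higher, with a median of -0.64, where 24.7% of all genes were lower and 17.9% higher. Fcgr3, a low-affinity IgG receptor, had a mean difference of -0.60 (limma adjusted p = 0.016), and the lectin receptors Clec4e and Clec4d had -0.68 and -0.92. Cd300c2 had 0.02 (limma adjusted p = 0.88) and passed only after cyclic loess, as higher. The difference of Fcgr3 no longer passed without the SCF term. Among 8 other adaptors of immune receptors 3 were measured. Cd247, the zeta chain of the T cell receptor complex, was 2.31 higher on the log2 scale in D816V cells, with relative values of 3.28 and 2.75 in D816V cells with and without SCF, against 0.85 and 0.55 in Del417-419insY cells. Hcst, the adaptor DAP10, was 0.95 higher, and Tyrobp, the adaptor DAP12, had 0.09 and did not pass. Over the alternatives the difference of Cd247 went down to 0.89 and passed in each.

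Ms4a2 also stood apart from the other measured genes of its family in the comparison of the lines. Of 16 listed MS4A genes 2 were measured, and both were lower in D816V cells, Ms4a6b by a log2 difference of -3.57 and Ms4a3, a gene of granulocyte precursors, by -1.29, which did not pass with an intensity trend or without the SCF term. Ms4a3 had relative log2 values of -4.64 and -3.38 in D816V cells with and without SCF, against -3.12 and -2.32 in Del417-419insY cells. With SCF its difference was -1.26 in D816V cells and -0.80 in Del417-419insY cells. That of Ms4a6b was -1.11 and -0.23, so all 3 measured MS4A genes were 2-fold or more lower with SCF in D816V cells, where 1.31% of all genes were. All 3 lay under the 25th percentile of the mean over the arrays and have no value with that filter.

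Signalling genes downstream of the receptor moved both ways. Of 48 listed genes 27 were measured, and 9 were higher and 6 lower in D816V cells, with a median of 0.09. Over all genes 17.9% were higher and 24.7% lower. The largest differences were those of Lcp2 (1.83), the adaptor SLP-76, the transcription factor gene Nfatc2 (1.60), the lipid kinase subunit gene Pik3cd (1.46) and Orai1 (1.04), the pore of the store-operated calcium channel. Syk, the kinase that binds the gamma chain, had -0.87 and Fyn, a kinase of the SRC family, -0.53, both lower, and these 2 were chosen after their values were seen. Fyn no longer passed after quantile normalization, after cyclic loess or in the fit of line alone. Of 29 listed inhibitors of this signalling 20 were measured, with 5 higher and 4 lower and a median of -0.08. They included the inhibitory receptors Cd300lf (2.56) and Cd200r1 (1.61), the signalling suppressor Socs1 (2.27) and the adaptor Pag1 (-0.97). Over the alternatives Socs1 went down to 1.47 and Pag1 shrank to -0.62, and both passed in each. With genes under the 25th percentile left out, 13 inhibitors remained, 5 higher and 0 lower, with a median of 0.20. This filter acts on the mean relative value over the 4 arrays, so low values in D816V cells can themselves remove a gene. It removed all 4 lower inhibitors, so the 5 to 0 count and the median are no result about the list. That fit called 1043 genes higher and 1232 lower.

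**Figure D4:**
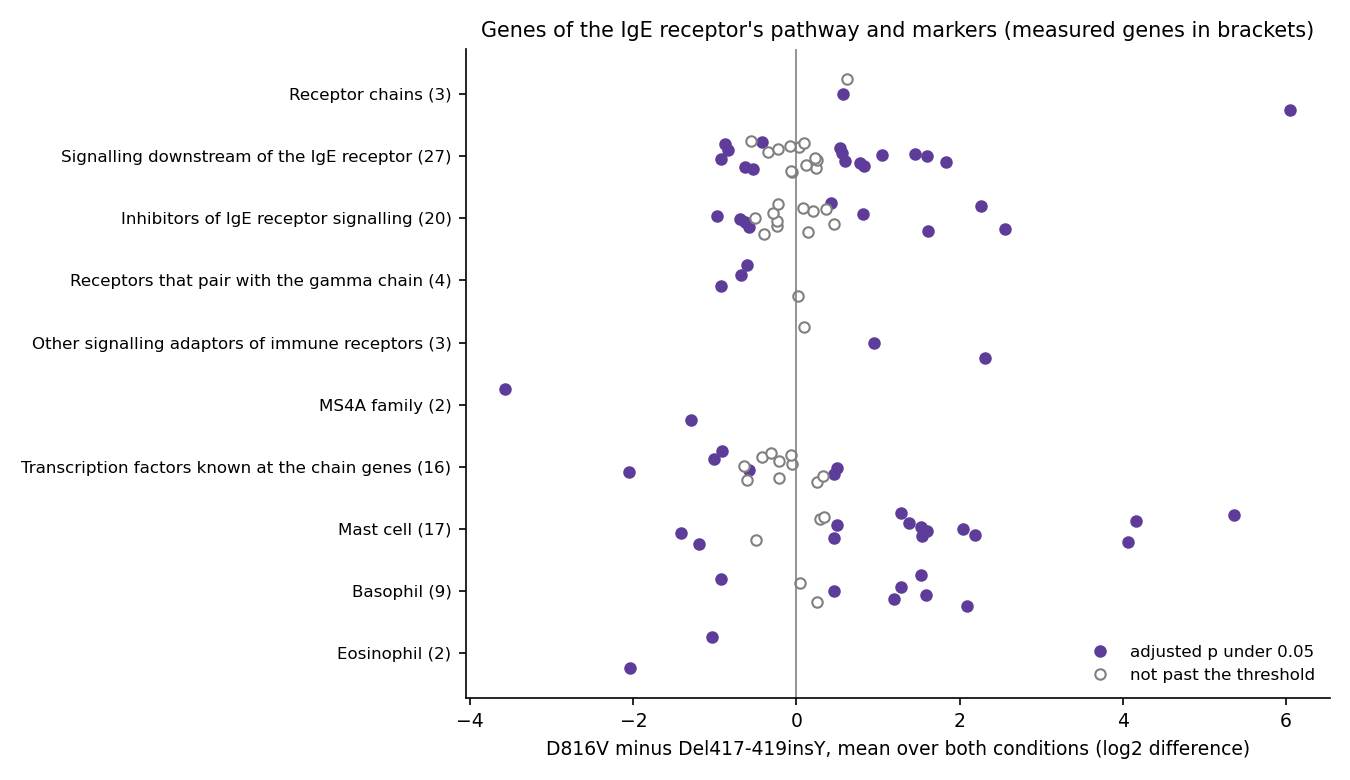
Mean log2 difference between the lines (x) of each measured gene in the receptor chains and 9 gene lists, filled where the limma adjusted p was under 0.05. Signalling and inhibitor genes lie on both sides of 0, mast cell genes mostly to the right, and Fcer1a farthest to the right at 6.06.

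Transcription factors known in mast cells or, from mouse or human work, at the promoters of the chains differed between the lines by less than Fcer1a. Of 19 listed factors 16 were measured, with 2 higher and 4 lower in D816V cells and a median of -0.27, a share of calls near the 42.6% over all genes. The 2 higher ones were Mitf (0.50, limma adjusted p = 0.042), a factor of mast cell and pigment cell development, and Gata2 (0.46, limma adjusted p = 0.047), a GATA factor of mast cells and progenitors, and neither passed without the SCF term. Gata2 had relative log2 values of 0.20 and 0.50 in D816V cells with and without SCF, against -0.09 and -0.13 in Del417-419insY cells. Gata1, its erythroid and mast cell relative, had 0.33 (limma adjusted p = 0.086), and Spi1, which encodes PU.1, had -0.21 (limma adjusted p = 0.18). The largest decreases were those of Hmga2 (-2.05), a chromatin protein, Stat5a (-1.02), a factor downstream of KIT, Zfpm1 (-0.91), the GATA cofactor FOG-1, and Ikzf1 (-0.58), the lymphoid factor IKAROS. Stat5a shrank to -0.62 over the alternatives and passed in each. Ikzf1 no longer passed after cyclic loess or in the fit of line alone.

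The genes most like each chain were the 5 nearest by Euclidean distance over the 4 arrays, after each gene's mean was subtracted. For Fcer1a these were Tph1, Metrnl, Akr1c13, Trgv4 and Gbp2, at distances of 0.74 to 0.93, where Fcer1a itself lay 6.07 from its own mean. They are among the genes that differed most between the lines. For Ms4a2 the nearest was Hmox1, heme oxygenase, at 0.08, with SCF differences of -1.69 in D816V cells and -0.70 in Del417-419insY cells. The amino acid transporter gene Slc1a5, the ubiquitin ligase scaffold Cul5, Slc6a20a and Ndufa12 followed at 0.28 to 0.48, where Ms4a2 lay 1.40 from its mean. For Fcer1g the nearest were Cyfip2, Galnt4, Septin11, Peak1 and Gnb1l, at 0.03 to 0.06, where Fcer1g lay 0.59 from its mean. No chain was among the 5 nearest to another. In the table of 6404 genes, Fcer1g ranked 768 and Ms4a2 811 by nearness to Fcer1a, and Fcer1g ranked 902 by nearness to Ms4a2. This distance also depends on the size of the differences, so chains with unlike folds lie apart by it whatever their pattern. With 4 arrays many genes share a profile, and these distances describe likeness only.

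**Figure D5:**
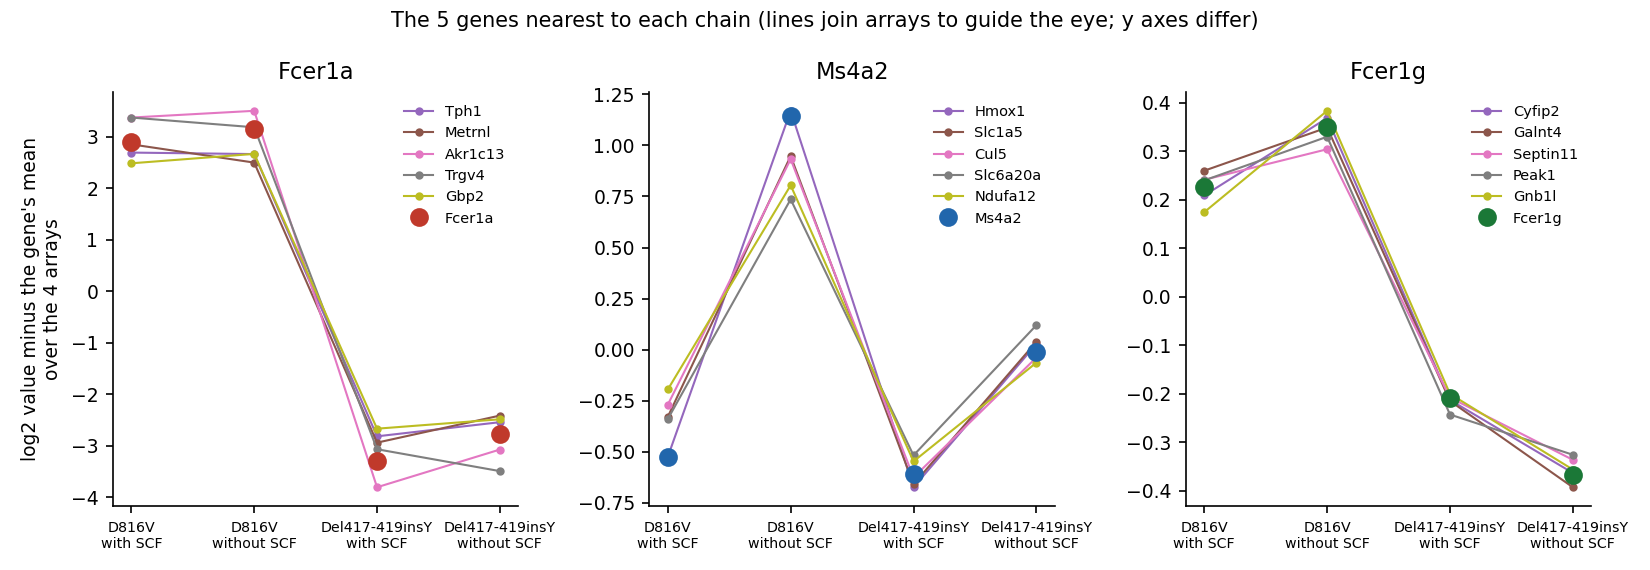
Log2 values minus the gene's own mean (y) on the 4 arrays for each chain (large points) and the 5 genes nearest to it (lines, which only join the points of a gene). The Fcer1a group follows the line, the Ms4a2 group peaks in D816V cells without SCF, and the y axes differ.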

How the data were processed

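RNA of 4 EML samples, 1 per group, was hybridised to Affymetrix mouse arrays, per the labels' protocols. The deposited values were made by the authors with RMA, per the submitters' processing notes, and are taken as log2; the base, the RMA version and the level each probe set is relative to are not stated. The table used here holds 10861 probe sets, by a filter not given there, and no brightness or detection value, so signal over background and background correction could not be examined. Symbols came from the platform annotation: 9633 probe sets had 1 symbol, 264 several and 964 none. The mean of its probe sets stood for a gene (6404 genes).

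Lines were compared as D816V over Del417-419insY, and treatment as with over without SCF. R 4.3.3 and its package limma 3.58.1 (functions lmFit, eBayes) fitted line + SCF over the 4 arrays, two-sided, with Benjamini-Hochberg adjustment over 6404 genes and a threshold of 0.05. The prior had 4.10 degrees of freedom. The fit was tested on simulated data. Single differences between 2 arrays have no test. Precision is limited by the number of arrays. Alternatives were 3 scalings, probe set choices, 2 priors, a filter at the 25th percentile of the mean and fits with 1 term. All of them used relative values. The intensity trend, the highest-mean probe set and the filter therefore follow the mean relative value and not brightness.

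Every probe set of the chains was named. From each list the 4 called genes with the largest differences between the lines were named, all genes in lists of 6 or fewer, and any gene of the factor, partner, adaptor and MS4A lists; each chain's 5 nearest genes were named as well. Fyn, Syk, Cd9, Ctsg, Hdc, Kit, Mcpt2, Mcpt4, Mcpt8 and Tpsb2 among the signalling and mast cell genes were added after their values were seen. So was Hbb-y of the erythroid list. The members and all lists were chosen with earlier results of these data known.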

Additional observations from a re-analysis of the deposited data

Results flagged for a closer look

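Fcer1g had SCF differences of opposite sign in the lines, -0.12 in D816V cells and 0.16 in Del417-419insY cells on the log2 scale, each from 1 array with SCF and 1 without. Cma1 had -1.19 in D816V cells and 0.76 in Del417-419insY cells, and Mcpt2 had -1.08 and 0.40. The differences between these responses were not tested.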

How the results depend on the processing

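The difference of Fcer1a and of Fcer1g between the lines kept its direction and stayed past the threshold in all 9 alternatives, at 16.0- to 72.4-fold for Fcer1a and log2 differences of 0.58 to 0.73 for Fcer1g. That of Ms4a2 kept its direction in its 9, between 0.51 and 1.28, and passed in 3, at 0.77 after quantile normalization, 1.28 after cyclic loess and 0.74 after array medians were subtracted. For SCF, Ms4a2 passed in 2 of 9, at -1.07 after array medians were subtracted and -1.17 with the highest-mean probe set, and Fcer1a and Fcer1g passed in 0 of 9 each. In single conditions Fcer1a differed between the lines by 5.46 with and 5.07 without SCF after quantile normalization, and by 4.11 and 3.90 after cyclic loess; Ms4a2 differed by 0.97 with and 1.59 without SCF after cyclic loess. Over all genes the SCF term called 2 genes after quantile normalization, 42 after cyclic loess, 256 both after medians were subtracted and with the highest-mean probe set, 10 with an intensity trend, and 257 probe sets when fitted one by one. For the lines this last fit called 4131 probe sets, and the fit without the SCF term 1603 genes instead of 2726. The 1147 higher and 1579 lower calls became 1526 and 1387 after quantile normalization, 1628 and 1263 after cyclic loess, and 1720 and 1302 after centring. Without the SCF term the signalling list had 4 higher and 4 lower genes, the mast cell list 8 and 2, and the promoter factors 0 and 3. Ms4a2 lay under the 25th percentile and has no value with that filter. The cause of these changes was not tested. No paired analysis was possible because each group has 1 array and the labels give no replicate numbers.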

Other observations

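Other lists with a bearing on IgE biology were described in the same way, between D816V and Del417-419insY cells. Of 2 further IgE binding proteins Lgals3, galectin-3, was measured and was higher in D816V cells (1.54 on the log2 scale, limma adjusted p = 0.002). Of 19 cytokine genes known to be induced after crosslinking of the receptor 4 were measured, and 3 were higher (17.9% of all genes were): Osm (2.00), Ccl9 (1.91) and Tnf (0.83), while Il6 had 0.23 and did not pass, except after quantile normalization and cyclic loess.

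Lists of cells that normally lack the alpha and beta chains gave calls in both directions, where 17.9% of all genes were higher and 24.7% lower. Of 4 measured T and NK cell genes 2 were higher, the granzyme gene Gzma (8.01) and Cd247, while Nkg7 (0.09) and Il2rb (-0.04) did not pass. After quantile normalization and cyclic loess Il2rb passed as lower, and over the alternatives its difference reached -0.99. Of 4 megakaryocyte genes the integrin gene Itgb3 (2.26) was higher, and the chemokine genes Ppbp (-4.93) and Pf4 (-1.42) and the platelet glycoprotein gene Gp9 (-1.21) were lower. Of 8 erythroid genes 1 was higher, Car2 (0.74), and 4 were lower, led by Car1 (-2.95), Ermap (-1.71) and Klf1 (-1.15). Of 8 progenitor genes 2 were higher, among them Slamf1 (1.62), and 6 were lower, led by Gfi1 (-1.82), Sox4 (-1.71) and Mpo (-1.64). Car2 no longer passed after quantile normalization, with an intensity trend or in the fit of line alone, and Gfi1 with an intensity trend or a robust prior. Among the genes of monocytes and dendritic cells the chemokine receptor genes Ccr2 (2.88) and Ccr7 (2.47), the invariant chain gene Cd74 (1.85) and the integrin gene Itgax (0.93) were higher, while the lysozyme genes Lyz2 (-0.86) and Lyz1 (-0.59) did not pass. Lyz2 passed with the highest-mean probe set, after quantile normalization and after centring, and Lyz1 after centring. Over the alternatives the differences went down to 3.85 for Gzma, 0.45 for Slamf1, 1.10 for Ccr2 and 0.31 for Car2, and those of Gzma, Slamf1 and Ccr2 passed in each. Of the 9 listed B cell genes 0 were in the table used here.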
